A study of Mus musculus with 18 samples.

Results

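The genes around Hoxb13 on mouse chromosome 11 were examined in RNA of headless embryos, as 78 genes of the 55138 in the deposited expression table. A gene was taken where its start lay within 1 Mb of Hoxb13 (mm10, chr11:95194316-97197447, with Hoxb13 itself at 96194316 to 96197447). Of 92 genes starting there, 14 were set aside: the Hoxb genes, Gm53 and Mir196a-1. The 78 that remained comprised 37 protein-coding genes, 10 antisense RNAs, 9 processed pseudogenes, 6 processed transcripts, 5 lincRNAs, 5 miRNA genes and 6 others (2 snRNAs, 2 misc_RNAs, 1 snoRNA and 1 locus of the class TEC). On the side of Hoxb13 that faces away from the HoxB cluster lay 39 genes, on the far side beyond Hoxb1 lay 34, and 5 were inside the cluster, 3 of them between Hoxb13 and Hoxb9. The rule takes genes by position and name, not by their expression, but it was set with earlier results of these data known.

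The libraries came from mouse embryos whose heads had been removed, and mutants were compared with wild-type littermates. All mutant alleles were homozygous. Del(i9-13) is read here as a deletion of the interval between Hoxb9 and Hoxb13, and Hoxb13hd is a second allele, of Hoxb13 itself, for which the sources used here give no molecular description. Libraries that carry both are called the double mutant. At embryonic day 9.5 (E9.5) there were 3 wild-type and 3 Del(i9-13) libraries, made from poly(A)-enriched RNA. At E10.5 there were 3 libraries each of wild type, Del(i9-13), Del(i9-13):Hoxb13hd, which carries both alleles, and Hoxb13hd, all made after ribosomal RNA depletion. Stage and library type therefore cannot be told apart. The labels do not say whether a library was 1 embryo or a pool, so p-values measure only the spread between these libraries.

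Hox genes sit in clusters whose order along the chromosome matches the order in which they are switched on along the head-to-tail axis, and Hoxb13 is the last gene of HoxB, active late, in the tail. Boundaries between chromatin domains, many bound by the protein CTCF, limit which genes an enhancer can reach. Genes beside a Hox cluster are useful for asking how far such a change in the cluster is seen. Most of the coding neighbours here are genes of general cell function, such as Kpnb1 (importin beta, nuclear import), Cbx1 (a heterochromatin protein of the HP1 family), Atp5g1 (a subunit of mitochondrial ATP synthase) and Igf2bp1 (an mRNA-binding protein of embryonic cells).

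Library depth was 29.8 to 35.9 M counted reads at E9.5 and 19.3 to 25.7 M at E10.5. Levels are given as CPM (read counts scaled to library size, within each stage) for comparisons of 1 gene between libraries, and as the deposited FPKM (scaled for transcript length and depth) for comparisons between genes. Hoxb13 itself was at 0.0335 to 0.133 CPM in E9.5 wild type and 37.7 to 45.0 CPM in E9.5 Del(i9-13). At E10.5 wild type ranged from 0.0421 to 1.13 CPM and Hoxb13hd from 0 to 0.106 CPM. The E10.5 deletion libraries ranged from 5.89 to 12.2 CPM, with Hoxb13hd or without. Gm53, which lies between Hoxb9 and Hoxb13, was at 0 to 0.0996 CPM in the 9 libraries with the deletion and at 13.2 to 55.0 CPM in the 9 without it. One library stood apart among the neighbours, replicate 1 of E9.5 wild type, and the E9.5 values that it moved most are given with and without it. Without it edgeR again called 0 neighbours at E9.5.

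A count filter (edgeR's filterByExpr, minimum count 10) left 36 genes to test at E9.5 and 35 at E10.5, of the 77 whose values are given. The 41 genes it removed at both stages held at most 83 counts each over all 18 libraries, and 10 of them held none. Of 36 coding genes, 31 were tested, and Tac4, Gip, Calcoco2, Prr15l and Tbx21 were not. No gene inside the cluster passed the filter. Levels spanned several orders of magnitude: 27 genes reached a mean of 1 FPKM at E10.5 and 15 reached 10 FPKM. The highest were Kpnb1 (151 FPKM), Cbx1 (96.7), Atp5g1 (88.0), Igf2bp1 (52.3) and Mrpl10 (33.2, a mitochondrial ribosomal protein). At E9.5 the same 5 genes had 214, 96.3, 108, 55.2 and 46.5 FPKM. The tested neighbours had a median of 10.7 FPKM at E9.5 and 8.51 at E10.5, against 5.61 and 4.32 over all genes tested. Level did not follow distance closely: over the tested genes Spearman's rho of log2 FPKM with the gap to Hoxb13 was 0.12 at E9.5 (36 genes) and 0.18 at E10.5 (35 genes), a description across genes that share the same libraries.

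**Figure D1:**
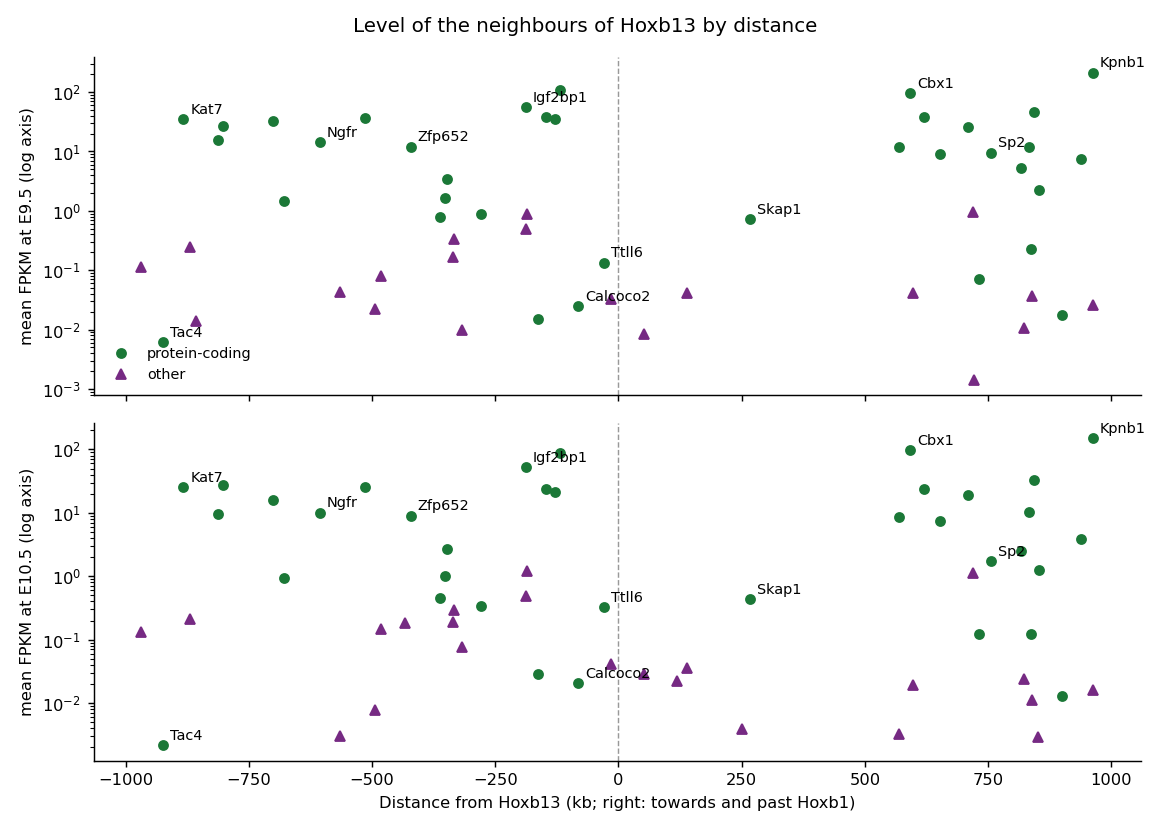
Mean FPKM of each neighbour (log axis) at E9.5 and E10.5 against its distance in kb from Hoxb13, with negative distances on the side away from the HoxB cluster; genes under 0.001 FPKM, 21 at E9.5 and 18 at E10.5, are not drawn. High and low genes lie on both sides, Kpnb1 and Cbx1 stand at the top on the Hoxb1 side, and Ttll6, the nearest tested gene, is low at both stages.

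Each comparison was fitted with edgeR's quasi-likelihood test over all genes, with Benjamini-Hochberg adjusted p-values and a threshold of 0.05, and a gene past it is said to be called. At E10.5, 2 of 35 neighbours were called in Del(i9-13) against wild type, where 0.488% of all 17202 genes were called: Ttll6 was higher and the RNA gene D030028A08Rik was lower. Both genes were also called, in the same directions, in Del(i9-13):Hoxb13hd against wild type, where 0.401% of all genes were called, and in the deletion effect averaged over both Hoxb13hd states, where 0.5% were. These comparisons share libraries and are not independent of each other. In Hoxb13hd against wild type 3 neighbours were called, Snf8 and Sp6 higher and D030028A08Rik lower, against 3.01% of all genes. In the Hoxb13hd effect averaged over both deletion states 5 were called, Snf8, Sp6, Ube2z and Nfe2l1 higher and D030028A08Rik lower, against 6.06% of all genes and 7.07% of the 1258 tested chromosome 11 genes outside the window.

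Fewer neighbours passed in the other contrasts. In Del(i9-13):Hoxb13hd against Hoxb13hd, which isolates the deletion on a Hoxb13hd background, 1 neighbour was called, Sp6, against 0.959% of all genes. In Del(i9-13):Hoxb13hd against Del(i9-13) none of 35 was called, against 0.907% of all genes. There 8 neighbours had an unadjusted p under 0.05, and DESeq2 called 0. The interaction of deletion and Hoxb13hd was called for 1 neighbour, D030028A08Rik, against 0.523% of all genes. At E9.5 edgeR called none of 36 neighbours, against 0.362% of all 16041 genes. There 5 had an unadjusted p under 0.05, and DESeq2 called 1, Ngfr. The deletion effect at E10.5 minus that at E9.5 was called for none of 35, against 0.0453% of all 17670 genes, with 2 at an unadjusted p under 0.05 and 0 by DESeq2. In all, 6 of the 36 neighbours tested at either stage were called in at least 1 of the 10 comparisons. The matching share of all genes was not computed, so this count is not read as many or few.

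**Figure D2:**
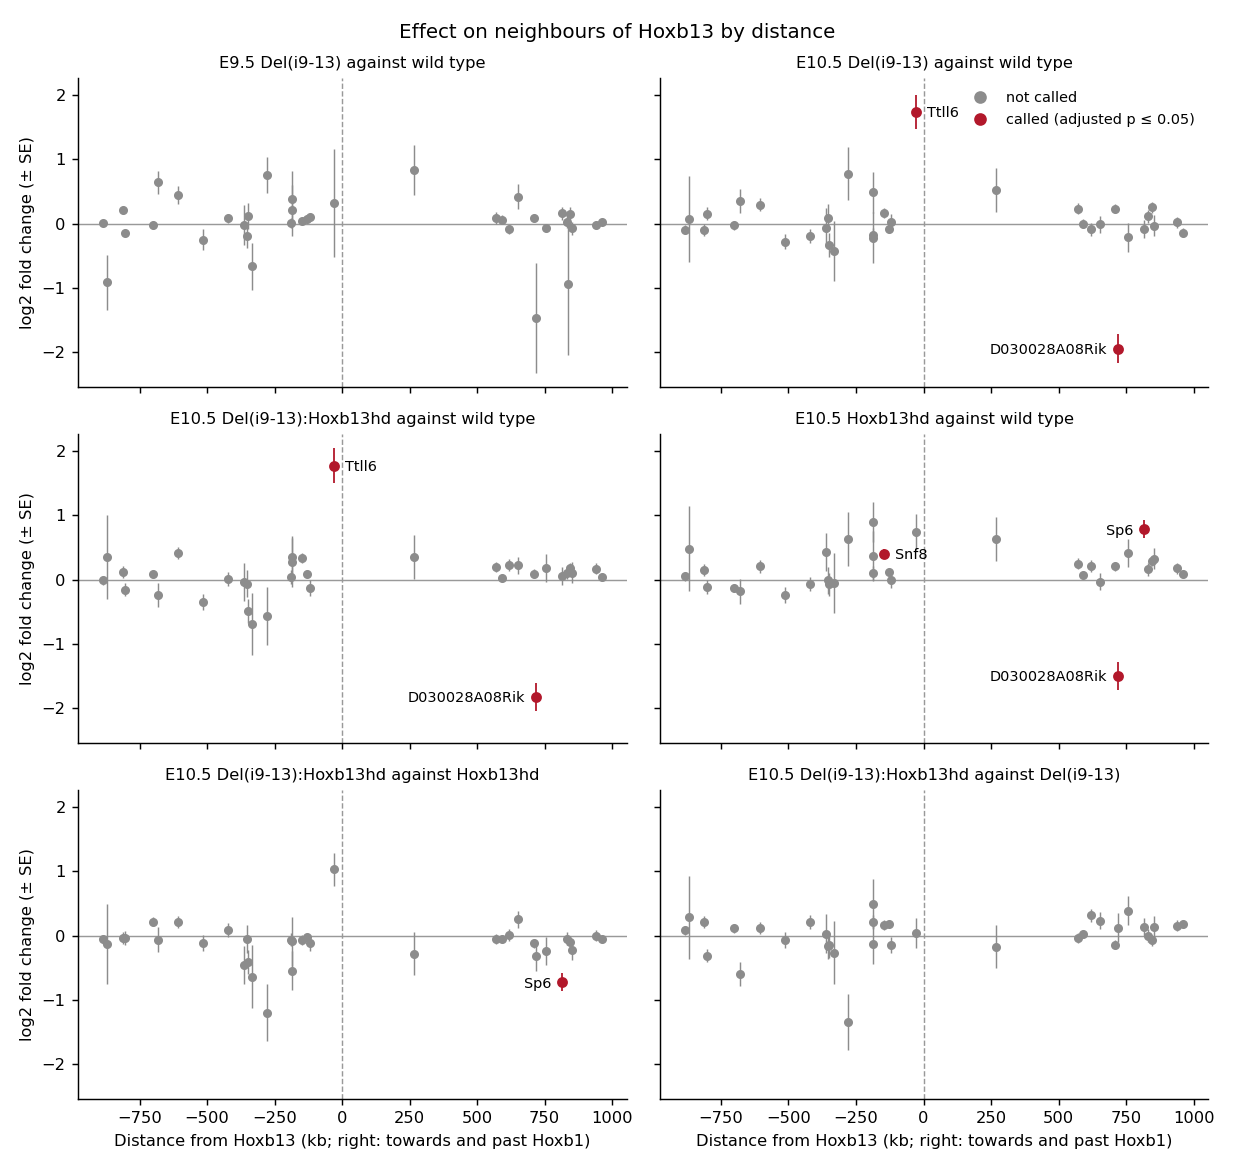
Log2 fold change with its standard error for each tested neighbour against its distance in kb from Hoxb13, 1 panel for each of 6 comparisons, with called genes in red. Most genes lie close to 0 at every distance. At E10.5 Ttll6 stands out beside Hoxb13 in the comparisons of deletion and double-mutant libraries with wild type. D030028A08Rik stands out 719 kb away in the 3 comparisons with wild type at E10.5.

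Called genes lay both next to Hoxb13 and far from it. Within 200 kb of Hoxb13 lay 7 genes tested at E10.5, all on the side away from the cluster, from 200 to 500 kb another 7, and from 500 to 1000 kb 21. In Del(i9-13) against wild type 1, 0 and 1 of them were called, in that order of distance. In the Hoxb13hd effect over both deletion states the counts were 2, 0 and 3. Spearman's rho between the size of the log2 fold change and the gap to Hoxb13 ran from -0.33 to -0.03 over the 10 comparisons, again a description across genes (35 or 36). The median log2 fold change of the neighbours was -0.01 in Del(i9-13) against wild type at E10.5, against 0.00 over all genes, and 0.05 at E9.5, against 0.00.

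Ttll6, which encodes a tubulin ligase that adds glutamate chains to microtubules of cilia, was the nearest tested gene to Hoxb13, 28.9 kb away at chr11:96133786-96165451 (+). Its level was low in every group. At E10.5 its 3 libraries had 0.816, 0.466 and 0.842 CPM in wild type and 1.45, 0.805 and 1.32 CPM in Hoxb13hd. With the deletion they had 2.44, 2.17 and 2.49 CPM in Del(i9-13) and 2.17, 2.61 and 2.52 CPM in Del(i9-13):Hoxb13hd. All 6 libraries with the deletion thus lay above all 6 without it (2.17 to 2.61 against 0.466 to 1.45 CPM).

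Against wild type Ttll6 rose 3.33-fold in Del(i9-13), by 1.74 on the log2 scale (SE 0.27, adjusted p = 0.00819, edgeR quasi-likelihood). In the double mutant it rose 3.43-fold, by 1.78 (SE 0.27, adjusted p = 0.0137). Over both Hoxb13hd states the deletion effect was 2.61-fold (adjusted p = 0.00581, edgeR), and each of the 12 leave-one-out fits kept this call. The first call was lost without wild-type replicate 2 (adjusted p = 0.0534), and the second without wild-type replicate 1 or 2 or Del(i9-13):Hoxb13hd replicate 3 (up to 0.0764) or with Xist as a covariate. All 3 were lost in limma on unfiltered log2 FPKM. Against Hoxb13hd, whose libraries were at intermediate levels, the double mutant was 2.04-fold higher without being called (adjusted p = 0.0707, edgeR). The interaction was not called (log2 -0.71, SE 0.37, adjusted p = 0.474, edgeR), so a difference of the deletion effect between the Hoxb13hd states was not detected.

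At E9.5 Ttll6 was at 0.0280, 1.14 and 0.596 CPM in wild type and 0.696, 0.531 and 0.919 CPM in Del(i9-13), so the groups overlapped. The log2 fold change was 0.32 (SE 0.84, adjusted p = 0.912, edgeR), and -0.27 without wild-type replicate 1, in which the gene had 1 count. Its deletion effect at E10.5 minus that at E9.5 was 1.44 on the log2 scale (SE 0.90, adjusted p = 0.854, edgeR), which is not a detected difference between stages. Markers of motile cilia did not move with Ttll6: the summed FPKM of Foxj1, Dnah5, Rsph1, Ccdc39 and Dnali1 was 1.10 to 1.99 in all 18 libraries, and none of the 5 was called. Brain markers did move with it at E10.5. The summed FPKM of Otx2, Emx2, Six3, Lhx2 and Dmbx1 was 6.13 to 7.54 in wild type and 6.60 to 8.15 in Hoxb13hd. It was 9.30 to 10.4 with the deletion alone and 11 to 14.0 in the double mutant. At E9.5 the sum went the other way, with 7.94 to 8.97 in wild type and 4.21 to 6.80 in Del(i9-13). Six3 was at 0 in every E10.5 library, and Lhx2 alone of the list was called, in the deletion effect over both states and in Del(i9-13):Hoxb13hd against either wild type or Hoxb13hd. The part of these cells in the Ttll6 result was not tested. In bulk RNA of this kind fewer cells of a type and less RNA per cell cannot be told apart.

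The promoter of Ttll6 is shown because it is the tested start site closest to the deleted interval. It is the RefSeq sequence (GRCm38.p6, chr11:96133536-96133835, + strand), from 250 bases before the start to 50 after it:
Ttll6: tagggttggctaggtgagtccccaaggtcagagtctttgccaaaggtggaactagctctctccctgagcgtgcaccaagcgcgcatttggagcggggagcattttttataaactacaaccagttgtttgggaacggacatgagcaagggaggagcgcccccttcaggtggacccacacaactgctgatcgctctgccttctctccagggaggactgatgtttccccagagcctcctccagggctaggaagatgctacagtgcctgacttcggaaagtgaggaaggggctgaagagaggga
No capitals appear in it, since none of the 4 motifs searched on both strands was found: TTTATG and TTTATT, forms of the site bound by posterior Hox proteins, the GC box GGGCGG and the CCAAT box CCAAT. Among all 32851 RefSeq windows of this length, shares of 11.9%, 19.6%, 35.7% and 37.4% hold these motifs. The GC content of the window was 55.7%, near the median of 52.7% over all windows. Other letters after TTTAT were not searched, and the window does hold TTTATA. A match or its absence describes the letters of the window and no more. The windows of 30 of the 77 genes were matched.

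D030028A08Rik, an RNA gene of the processed transcript class, lies 719 kb from Hoxb13 on the far side of the cluster (chr11:96916270-96965060, +). Its locus overlaps genes on the other strand, part of Sp2 among them, and holds Prr15l on the same strand. In E10.5 wild type it was at 6.35, 6.78 and 4.55 CPM. The deletion libraries had 1.88, 1.49 and 1.18 CPM, those of the double mutant 1.72, 1.44 and 1.82 and those of Hoxb13hd 2.00, 1.80 and 2.43, all below wild type. At E9.5 it was at 7.76, 1.00 and 1.42 CPM in wild type and 1.31, 1.13 and 1.27 CPM in Del(i9-13), so wild-type replicate 1 stood far above the rest, at 6.33 times the mean of the other 5. The log2 fold change at E9.5 was -1.47 with it (SE 0.85, adjusted p = 0.572, edgeR) and 0.02 without it (adjusted p = 0.99).

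Against E10.5 wild type D030028A08Rik fell 3.86-fold with the deletion alone, 3.54-fold in the double mutant and 2.83-fold with Hoxb13hd alone (adjusted p = 0.000602, 0.00231 and 0.00524, edgeR). The 3 comparisons rest on the same 3 wild-type libraries, and each call was kept in all 12 leave-one-out fits. The double mutant differed from neither single mutant by a call (log2 -0.32 against Hoxb13hd and 0.13 against Del(i9-13), adjusted p = 0.569 and 0.83, edgeR). Its averaged deletion effect was -1.13 on the log2 scale (adjusted p = 0.00749, edgeR) and was kept in all 12 as well. On the deposited FPKM the difference was smaller, with 1.76 ± 0.387 for wild type, 0.765 ± 0.311 for the deletion alone, 0.894 ± 0.0973 for the double mutant and 1.03 ± 0.0242 for Hoxb13hd alone (SD, n = 3 each). None of the 3 limma fits on log2 FPKM called it in these comparisons (adjusted p up to 0.32). Its interaction was 1.63 on the log2 scale (SE 0.32, adjusted p = 0.0427, edgeR) and was lost in 10 of 12 leave-one-out fits. Its averaged Hoxb13hd effect, -0.69 (adjusted p = 0.028, edgeR), was lost in 7 of 12. The sources used here do not give the strand setting of the counting, and strand would not separate Prr15l. Reads of D030028A08Rik and of the genes it overlaps therefore cannot be told apart.

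**Figure D3:**
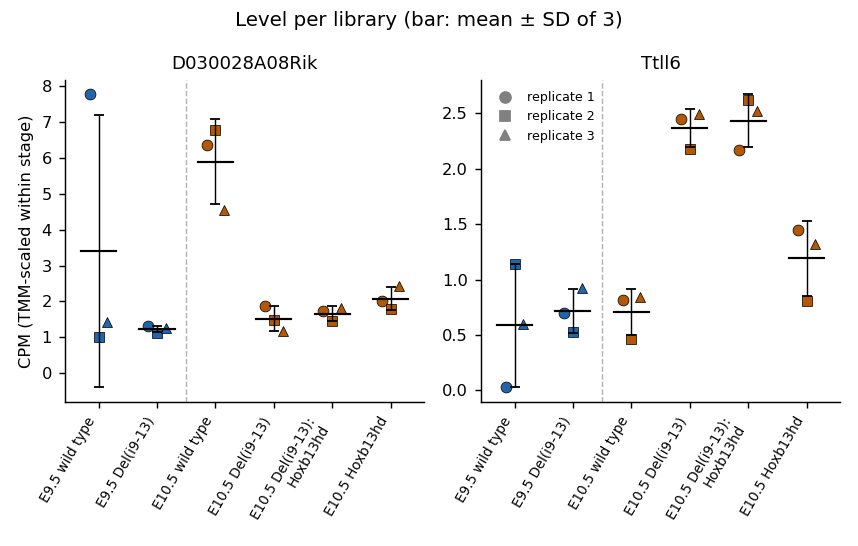
CPM of D030028A08Rik and Ttll6 in each of the 18 libraries by group, with the group mean and SD; CPM is scaled within each stage. D030028A08Rik is high in the 3 E10.5 wild-type libraries and in 1 of 3 at E9.5, and Ttll6 is high in the 6 E10.5 libraries with the deletion.

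Sp6 and Snf8 were the neighbours called higher in Hoxb13hd against wild type. Sp6, a zinc-finger transcription factor of limb, tooth and hair ectoderm, lies 816 kb away at chr11:97013394-97024734 (+). Its E10.5 libraries had 10.2, 12.8 and 10.2 CPM in wild type and 15.6, 20.3 and 21.3 CPM in Hoxb13hd. The deletion libraries had 10.9, 11.4 and 9.07 CPM, and those of the double mutant 10.6, 12.4 and 11.5. The Hoxb13hd libraries were the highest of the 12, and the other 3 groups overlapped. From wild type to Hoxb13hd, Sp6 rose 1.72-fold (log2 0.79, SE 0.14, adjusted p = 0.0156, edgeR) and was 1.66-fold lower in Del(i9-13):Hoxb13hd than in Hoxb13hd (log2 -0.73, SE 0.14, adjusted p = 0.0339). Against wild type the double mutant had a log2 fold change of 0.06 (adjusted p = 0.905, edgeR). The first call was lost without wild-type replicate 1 or 3 or Hoxb13hd replicate 2 or 3 (adjusted p up to 0.0823), and the second without any 1 of the 3 double-mutant libraries or Hoxb13hd replicate 2 or 3 (up to 0.135). The averaged Hoxb13hd effect on Sp6 was 0.46 on the log2 scale (adjusted p = 0.0224, edgeR) and was kept in 7 of 12 leave-one-out fits. The interaction of Sp6 was not called (adjusted p = 0.214, edgeR).

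Snf8, a subunit of the ESCRT-II complex that sorts membrane proteins for lysosomal breakdown, lies 147 kb from Hoxb13 at chr11:96034885-96047430 (+). Its E10.5 libraries had 27.4, 29.8 and 28.9 CPM in wild type and 35.8, 38.3 and 39.8 CPM in Hoxb13hd. The deletion libraries had 33.9, 31.8 and 30.6 CPM, and those of the double mutant 37.8, 36.4 and 34.0. All 6 libraries with Hoxb13hd lay above all 6 without it. From wild type to Hoxb13hd, Snf8 rose 1.32-fold (log2 0.40, SE 0.08, adjusted p = 0.0192, edgeR), a call lost without any of 4 single libraries, wild-type replicates 1 and 3 and Hoxb13hd replicates 2 and 3 (up to 0.092). Its Hoxb13hd effect over both deletion states was 0.29 on the log2 scale (adjusted p = 0.0138, edgeR) and was kept in all 22 alternative settings.

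Ube2z and Nfe2l1 were called in the averaged Hoxb13hd effect alone. Ube2z, a ubiquitin-conjugating enzyme whose gene lies on the other strand with its end beside that of Snf8, had 108, 120 and 120 CPM in wild type and 126, 127 and 124 in Hoxb13hd. With the deletion it had 107, 106 and 114 CPM, and 123, 126 and 123 CPM when Hoxb13hd was also present. All 6 Hoxb13hd libraries thus lay above the 6 others, by 0.15 on the log2 scale (SE 0.04, adjusted p = 0.0487, edgeR). Nfe2l1, a transcription factor of proteasome genes 620 kb away on the far side, had 120, 135 and 143 CPM in wild type and 168, 145 and 148 CPM in Hoxb13hd. With the deletion it had 141, 113 and 120 CPM, and 148, 147 and 169 CPM in the double mutant. The libraries with Hoxb13hd again lay above those without, by 0.26 on the log2 scale (SE 0.07, adjusted p = 0.0412, edgeR). Both calls were near the threshold and were lost with upper-quartile scaling: 3 of 12 leave-one-out fits kept Ube2z and 2 of 12 kept Nfe2l1.

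**Figure D4:**
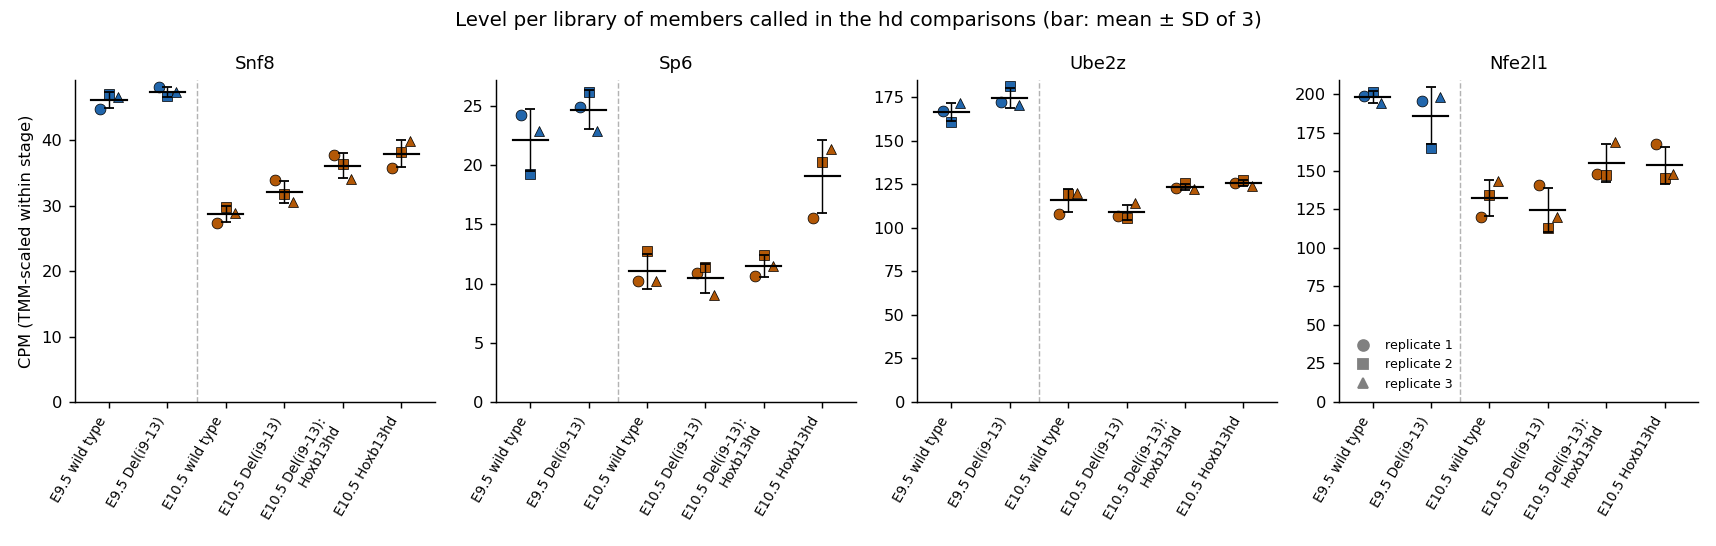
CPM of Snf8, Sp6, Ube2z and Nfe2l1 in each library by group, with the group mean and SD; CPM is scaled within each stage. At E10.5 Sp6 is highest in the 3 Hoxb13hd libraries, and for Snf8, Ube2z and Nfe2l1 the 6 libraries with Hoxb13hd lie above the 6 without it.

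Markers of other cells also differed between Hoxb13hd alone and wild type. The summed FPKM of 9 tail bud markers was 42.5 to 57.7 in Hoxb13hd. It was 24.7 to 37.0 in E10.5 wild type, and with the deletion 27.6 to 29.3, or 32.4 to 36.6 where Hoxb13hd was also present. Wnt3a and Fgf8 were called higher in Hoxb13hd against wild type and in the averaged effect. The 6 markers of spinal cord neurons summed to 61.1 to 91.6 FPKM in wild type and 36.7 to 57.3 in Hoxb13hd, with Dcx called lower. With the deletion alone these 6 markers summed to 68.6 to 92.9 FPKM. In the double mutant, which also carries Hoxb13hd, they summed to 84.2 to 93.3 FPKM and were not lower. The tail bud sums of the double mutant likewise overlapped wild type. The 6 markers of liver bud and visceral endoderm summed to 57.1 to 164 FPKM in E10.5 wild type and 7.38 to 34.1 in Hoxb13hd, without overlap. With the deletion alone they summed to 94.2 to 437 FPKM, and in the double mutant to 84.0 to 110. The heart muscle sums reached 203 FPKM in wild type and 66.6 in Hoxb13hd, with overlapping ranges. The part of these cells in the Snf8, Sp6, Ube2z and Nfe2l1 results was not tested. The share of neighbours with a positive log2 fold change in the averaged Hoxb13hd effect was 71.4%, against 46.6% of all genes and 55.9% of chromosome 11 genes outside the window. In Del(i9-13):Hoxb13hd against Hoxb13hd it was 17.1%, against 47.7% of all genes. The medians behind these shares were small, 0.11 and -0.06 on the log2 scale.

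Among the tested neighbours the other close genes were not called by edgeR in any comparison with all libraries. Atp5g1, 119 kb away, had a log2 fold change against wild type of 0.11 at E9.5. At E10.5 it had 0.02 for Del(i9-13), -0.12 for the double mutant and 0.00 for Hoxb13hd. Igf2bp1, 188 kb away, had 0.01, -0.18, 0.04 and 0.10 in the same order, and was called in the averaged Hoxb13hd effect and in the double mutant against Del(i9-13) without Del(i9-13) replicate 1. Gm29202, an RNA gene whose locus overlaps the 5' end of Igf2bp1 on the other strand, had 0.21, 0.49, 0.35 and 0.90, with standard errors of 0.31 to 0.40. On the other side of the cluster the nearest tested gene was Skap1, an adaptor of T cell receptor signalling, 267 kb from Hoxb13. It was at 0.448 to 1.86 CPM at E9.5 and at or under 1.22 CPM in every E10.5 library, and its log2 fold changes were 0.84, 0.52, 0.35 and 0.63 (SE 0.39 at E9.5 and 0.34 at E10.5). Without replicate 1 of E9.5 wild type, the E9.5 value was 0.48 for Skap1, -0.13 for Gm29202, -0.07 for Igf2bp1 and 0.15 for Atp5g1. Behind it Snx11, a sorting nexin of endosomes 570 kb away, had 0.09, 0.23, 0.19 and 0.25, and 0.01 at E9.5 without that library. Cbx1, 592 kb away, was the steadiest of the genes followed here, with a coefficient of variation of 1.54% over the 4 E10.5 group means and log2 fold changes of 0.06 (0.01 without that library), 0.00, 0.02 and 0.07.

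Further out, Mrpl10 (844 kb) had 68.5, 70.3 and 66.2 CPM in E10.5 wild type and 78.0, 91.9 and 80.5 CPM in Hoxb13hd. The deletion libraries had 72.1, 86.2 and 86.1 CPM, and those of the double mutant 77.1, 81.9 and 73.5. All 9 mutant libraries lay above the 3 of wild type, yet none of the 3 comparisons was called (log2 0.25, 0.18 and 0.29 for deletion, double mutant and Hoxb13hd, adjusted p = 0.327, 0.395 and 0.079, edgeR). Kpnb1, the most abundant neighbour, 962 kb away, had log2 fold changes of -0.14, 0.03 and 0.08 in the same order, and of 0.02 at the earlier stage. Spop, 701 kb away on the side of Hoxb13, had -0.03, 0.08 and -0.13, and -0.02 at the earlier stage. Copz2, a coatomer subunit of vesicle coats 652 kb away, had -0.01, 0.22 and -0.03, and 0.42 at the earlier stage (SE 0.20, and 0.23 without wild-type replicate 1). With all libraries edgeR called none of these 4 in any comparison, while DESeq2 called Mrpl10 in Hoxb13hd against wild type and Kpnb1 in the averaged Hoxb13hd effect, and without Del(i9-13) replicate 1 edgeR called both in those comparisons. The most extreme estimate among the neighbours not called was the interaction of B4galnt2, a glycosyltransferase gene named after its values were seen (log2 -1.98, SE 0.61, adjusted p = 0.213, edgeR).

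The genes whose level varied most over the 4 E10.5 groups were mostly those already described: the coefficient of variation of the group mean FPKM was 40.0% for D030028A08Rik, 27.9% for Sp6, 21.2% for Gm29202, 17.9% for Sp2 and 16.7% for Phb, among genes of at least 1 FPKM. Phb (prohibitin, a protein of the inner mitochondrial membrane), 514 kb away, had 31.9 ± 1.86 FPKM in E10.5 wild type and means of 23.1 to 23.9 FPKM in the 3 mutant groups (SD, n = 3). The main edgeR fits called Phb in no comparison. With Xist as a covariate it was called at E9.5 (log2 -0.60), in a fit that sets the deletion libraries against wild-type replicate 1. Sp2, a zinc-finger factor that overlaps D030028A08Rik, was not called by edgeR in any comparison with all libraries (without Del(i9-13) replicate 1 it was, in the averaged Hoxb13hd effect and in the double mutant against Del(i9-13)). Its wild-type level was 9.79 ± 0.117 FPKM at E9.5 and 1.59 ± 0.367 at E10.5 (SD, n = 3), a 6.17-fold gap between sets of libraries that also differ in preparation. For comparison, the same ratio was 0.969 for Cbx1 and 2.07 for Spop, an adaptor of a ubiquitin ligase. Ranked by the likeness of their pattern to Hoxb13 over the 12 E10.5 libraries (Pearson's r of log2 CPM), the first 5 tested neighbours were Ttll6, Ngfr, Spop, Copz2 and Snx11. No r is printed for them, because these libraries fall into those with and without the deletion.

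Ngfr, the p75 neurotrophin receptor of neural crest and neurons, came second in that order and lies 607 kb away at chr11:95568818-95587735 (-). At E9.5 it was at 40.1, 58.2 and 55.1 CPM in wild type and 72.5, 70.7 and 64.7 CPM in Del(i9-13). At E10.5 it was at 44.0, 35.8 and 44.2 CPM in wild type and 49.2, 42.5 and 51.4 CPM in Hoxb13hd. The deletion libraries had 54.1, 48.1 and 49.8 CPM, and those of the double mutant 51.7, 56.2 and 57.7. The deletion groups did not overlap wild type at either stage, yet the adjusted p in edgeR was 0.324 at E9.5 (log2 0.44), 0.328 for Del(i9-13) at E10.5 (log2 0.29) and 0.096 for the double mutant (log2 0.42). Without E9.5 wild-type replicate 1 the E9.5 value was 0.29 (adjusted p = 0.296, edgeR). DESeq2 called Ngfr at E9.5 (adjusted p = 0.0398), in the E10.5 double mutant against wild type and in the deletion effect over both states, and edgeR without the count filter called it in the double mutant. With Xist as a covariate edgeR called Ngfr at E9.5 (log2 0.80), in a fit that sets the deletion libraries against wild-type replicate 1.

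By function, the genes of general cell biology in the window mostly passed no test. Of 10 genes of transcription and chromatin 8 were tested. In Del(i9-13) against wild type none of the 8 was called or had a positive log2 fold change (median -0.09, against 0.00 over all genes). Of all genes 0.488% were called there and 50.5% were positive. In Del(i9-13):Hoxb13hd against Del(i9-13) none of the 8 was called and all 8 were positive (median 0.17, against -0.02). Of all genes 0.907% were called there and 46.7% were positive. Both comparisons use the same Del(i9-13) libraries. In the averaged Hoxb13hd effect Sp6 and Nfe2l1 of this list were called higher. Of 8 genes of trafficking and transport 7 were tested. Snf8 alone was called, in Hoxb13hd against wild type and in the averaged Hoxb13hd effect. Of 4 ubiquitin and peptidase genes all were tested and Ube2z alone was called, in the averaged Hoxb13hd effect. These 2 comparisons called 3.01% and 6.06% of all genes. The main edgeR fits called none of 5 genes of mitochondria and metabolism, all tested, in the 10 comparisons. None of the 4 tested immune and blood genes (Skap1, Abi3, Tbkbp1 and Gngt2) and neither of the tested secreted or receptor genes (Ngfr and Nxph3) was called in any of the 10 comparisons by the main edgeR fits. Of the microtubule genes, Lrrc46 was tested at E9.5 alone and was not called.

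Some genes too weak to test still gave counts worth stating. Gm11535, a lincRNA 15.5 kb from Hoxb13 at chr11:96177551-96178800 (+), was chosen for mention after its values were seen. It had no count in the 9 libraries without the deletion. With the deletion it had 7, 2 and 0 counts at E9.5, 2, 2 and 3 in E10.5 Del(i9-13) and 3, 0 and 7 in the E10.5 double mutant. Taking 3 counts, summed over a group, as the floor, it was at least 2.99-fold higher at E9.5, 2.32-fold higher in Del(i9-13) at E10.5 and 2.93-fold higher in the double mutant than in Hoxb13hd, counting error only. Tested without the filter, edgeR gave adjusted p = 0.266, 0.692 and 0.263 for these comparisons, so none was called. Inside the cluster Gm11539, between Hoxb13 and Hoxb9, had 26 counts in E9.5 wild type and 36 in Del(i9-13), a ratio of 1.38 with an exact 95% counting interval of 0.811 to 2.38. Gm11539, a processed pseudogene, lies in the interval read here as deleted. Gm53 in that interval was at most 0.0996 CPM with the deletion. Where the Gm11539 reads came from was not tested, so these counts cannot be taken as its own level. Calcoco2, an autophagy receptor gene 82.4 kb from Hoxb13, held 18 counts over all 18 libraries, and was at 4 counts in each E9.5 group.

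Replicate 1 of E9.5 wild type stood apart in several neighbours. A gap of over 1 log2 unit to the mean of the other 2 replicates was found for 5 of 36 tested neighbours, 13.9%, against 2.44% of all genes: D030028A08Rik and Lrrc46 were higher, and Gm29202, Ttll6 and Skap1 were lower. Its log2 gap was 2.60 for D030028A08Rik, 2.74 for Lrrc46 and -2.86 for Ttll6. It also had 13.2 CPM of Gm53, against 27.7 and 28.5 in the other wild-type libraries. Xist, the RNA of the inactive X chromosome, was at 1.26 CPM in it and at 1474 and 1556 CPM in replicates 2 and 3, so it differed from them by sex, while all 3 E9.5 Del(i9-13) libraries were at 1.01 to 1.25 CPM. With Xist as a covariate D030028A08Rik was called at E9.5 (log2 -2.70, adjusted p = 0.00985, edgeR), in a fit that sets the 3 deletion libraries against replicate 1. At E10.5 wild type held both kinds of library, with Xist at 0.952, 600 and 0.463 CPM beside D030028A08Rik at 6.35, 6.78 and 4.55. Tail bud markers summed to 49.6 to 86.8 FPKM in E9.5 wild type and 99.8 to 108 in E9.5 Del(i9-13), with none of the 9 called, and their part in the E9.5 results was not tested.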

How the data were processed

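The members, gene lists and motifs were chosen with earlier results of these data known, and the genes were also placed on chromosome 11 of the deposited FPKM table. Per the labels and the submitters' processing notes, cutadapt 1.18, STAR 2.7.10a (build mm10) and Cufflinks 2.2.1 were the tools. The authors deposited raw counts per gene (55141 genes) and FPKM values (55138 genes, without counts or depth in that table). HTSeq made the counts, as the name of the deposited table has it, but the sources used here give neither its strand setting nor the annotation. All 78 genes are in GENCODE M21, 74 with the same coordinates. 1 of the 78, and 1 marker gene, are not reported here: both stayed in the fits over all genes and out of the counts, medians and figures of the neighbours.

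Counts were filtered with filterByExpr (minimum 10, total 15), scaled by TMM and tested with edgeR 4.0.16 (robust quasi-likelihood, R 4.3.3), over 6 E9.5 libraries, 12 E10.5 libraries, or 12 for the stage difference. P-values were adjusted by Benjamini-Hochberg over all genes tested. FPKM was used for levels between genes, and log2 CPM used a pseudocount of 0.1. The 10 comparisons share libraries: the 3 E10.5 wild-type libraries enter every comparison with wild type. The procedure was tested on simulated counts in which 200 genes were changed. Named genes are those called in any comparison, the 4 nearest tested on each side, the 5 of highest and the 5 of most variable FPKM, and the 5 most like Hoxb13, with examples from the role lists. Alternatives were other scalings and filters, DESeq2 1.42.0, limma 3.58.1 on log2 FPKM (pseudocount 0.1 or 1), the groups compared alone, Xist as a covariate, a replicate block and leave-one-out. At E9.5 same-numbered libraries deviated together (correlations 0.173, 0.127 and 0.196), but the labels do not say that numbers pair libraries. The main fits therefore held the group alone. The replicate block was an alternative setting only, and it too called 0 neighbours at E9.5. Replicates differed by more than sampling noise (chi-square per degree of freedom 13.2 to 35.1).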

Additional observations from a re-analysis of the deposited data

Results flagged for a closer look

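The interaction term for D030028A08Rik at E10.5 was 1.63 on the log2 scale: its level fell with the deletion where Hoxb13hd was absent and was already low where it was present. The call was lost in most leave-one-out fits. It was also lost with the replicate block, with Xist as a covariate and in limma on log2 FPKM. Gm11535, outside the tested set because of its low counts, had 9 counts over the E9.5 Del(i9-13) libraries, 7 over E10.5 Del(i9-13) and 10 over Del(i9-13):Hoxb13hd, with 0 in the wild-type and Hoxb13hd libraries compared with them.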

How the results depend on the processing

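Of 16 calls for 6 genes, 1 held in every alternative run and 6 in every leave-one-out fit, and none changed direction. DESeq2 called 1 neighbour at E9.5 (edgeR 0), 4 in Del(i9-13):Hoxb13hd against wild type (edgeR 2), 2 against Hoxb13hd (edgeR 1), 4 in the deletion effect over both states (edgeR 2), 4 in Hoxb13hd alone against wild type (edgeR 3) and 6 in the averaged Hoxb13hd effect (edgeR 5). Limma on log2 FPKM with a pseudocount of 0.1 or 1 called 0 in Del(i9-13) and 1 in the double mutant against wild type. It called 0 in the averaged deletion effect, 2 in the averaged Hoxb13hd effect (edgeR 5) and 0 in the interaction (edgeR 1). An FPKM filter in these settings removed Ttll6, so no call of that gene was possible there. Without the FPKM filter limma called 0, 0 and 1 for the deletion alone, the double mutant and Hoxb13hd alone against wild type. It called 0 in Del(i9-13):Hoxb13hd against Hoxb13hd, 0 in the averaged deletion effect, 1 in the averaged Hoxb13hd effect and 0 in the interaction. With Xist as a covariate 3 were called at E9.5, 1 in the double mutant against wild type, 0 against Hoxb13hd, 3 in the averaged Hoxb13hd effect and 0 in the interaction. Upper-quartile scaling left 3 in the averaged Hoxb13hd effect. Counting only genes within 500 or 200 kb, by gap or by starts, left 1 in each comparison with wild type at E10.5, 0 in Del(i9-13):Hoxb13hd against Hoxb13hd, 1 and 2 in the averaged deletion and Hoxb13hd effects, and 0 in the interaction, by construction. For the other settings the cause was not tested.

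Leaving out 1 library gave 0 to 0 calls at E9.5, 1 to 4 for Del(i9-13), 1 to 4 for Del(i9-13):Hoxb13hd and 1 to 4 for Hoxb13hd against wild type, 0 to 2 for Del(i9-13):Hoxb13hd against Hoxb13hd, 0 to 4 against Del(i9-13), 2 to 3 and 1 to 10 for the averaged deletion and Hoxb13hd effects, 0 to 1 for the interaction and 0 to 0 for the stage difference. Without Del(i9-13) replicate 1 the counts rose to 4 for Del(i9-13) against wild type (Cdk5rap3 and Mrpl10 added), 4 for the double mutant against wild type (Ngfr and Snf8 added), 4 against Del(i9-13) and 10 for the averaged Hoxb13hd effect. The averaged Hoxb13hd effect kept 1 call, Snf8, without wild-type replicate 1, Hoxb13hd replicate 2 or replicate 3 of the double mutant.

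With the replicate number as a block the calls were 0 at E9.5, then 2, 2 and 3 for the deletion alone, the double mutant and Hoxb13hd alone against wild type, 1 and 0 in those of the double mutant with Hoxb13hd and Del(i9-13), 2 and 4 in the averaged deletion and Hoxb13hd effects, 0 in the stage difference and 0 in the interaction, where D030028A08Rik was lost. At E10.5 same-numbered libraries correlated from -0.358 to 0.311. With 3 libraries a group these values do not decide whether the numbers pair libraries. With 3 libraries a group, low counts limit what can be seen of the 41 genes under the filter, and no scaling moved the median of all genes by more than 0.04 (log2).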
